A study of Mus musculus with 21 samples.

Results

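Long 3′ untranslated regions (UTRs), of 3000 bases or more, were examined in the left ventricle of 21 adult mice given 4-thiouracil, a tag for newly made RNA. Intervals of the 3′ UTR annotation that overlap on 1 strand were reduced to the interval with the most reads over all libraries. Mitochondrial intervals were left out of the sets compared, but not of the fits that tested each interval. Of 208307 intervals in the table, 120310 were kept and 12662 of those that lie off the mitochondrial genome held at least 2000 reads summed over the libraries. The long intervals were the 1885 of these with a length of at least 3000 bases, and the other 10777 served as the comparison. A further 2147 kept intervals were as long but held fewer reads, out of 4032 long kept intervals in all.

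The 3′ UTR is the stretch of a messenger RNA behind the stop codon. It carries sites for microRNAs and RNA-binding proteins that set how long the message lasts, where it goes and how often it is translated, and long 3′ UTRs have room for more such sites. SLAM-IT-seq reads new RNA from the conversion of T to C: the enzyme uracil phosphoribosyltransferase (Uprt) lets a cell build 4-thiouracil into RNA, iodoacetamide alkylates it, and the alkylated base is read as C. A library made from the 3′ end of messages covers an interval mainly near the sites where messages end, so the length of an interval is that of the annotation and not of the sequence read.

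All 21 mice carried the Myh6MCM transgene, a tamoxifen-inducible Cre recombinase under a cardiomyocyte promoter, and all received tamoxifen at 6 to 8 weeks of age and 4-thiouracil 2 weeks later, with hearts taken 6 hours after that. There were 4 groups. The Uprt transgene (Uprt Tg/0) was carried by 14 mice, of which 8 were Lmna +/+ (4 of each sex) and 6 were Lmna F/F (2 males). The other 7 lacked it: 3 were Lmna +/+, all of them male, and 4 were Lmna F/F (2 of each sex). Lamin A/C, a protein of the nuclear lamina, is the product of Lmna, and F is the floxed allele that Cre deletes in cardiomyocytes, while other cells of the ventricle keep it. Each library came from 1 mouse, and mice are numbered within a group in the order of deposit, since the labels number none. Therefore p-values measure the spread between mice. In the main fits that spread was estimated over all 21 libraries. The p-values for Lmna genotype without Uprt thus rest also on the spread of the 14 mice with Uprt. The ventricle is a mixture of cell types, in which fewer cells of a type and less RNA per cell cannot be told apart.

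Libraries held 18374409 to 36676784 reads on kept nuclear intervals. The long intervals took 1379701 to 2735879 reads of a library, which was 6.97% to 8.52% of those reads. Interval IDs were not paired with gene names in the sources used here, so the ventricular label was not checked against cell type markers, the loss of Lmna reads was not checked, and intervals are named by position in mm39. Where an ID is printed it is that of the table.

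The long intervals had a median length of 4066 bases (quartiles 3461 and 5161), and 898 of them (47.6%) were under 4000 bases. 517 reached 5000 bases and 37 reached 10000. The median interval held 9994 reads over the 21 libraries (quartiles 4649 and 23283), against 8234 for the other intervals. They lay on 20 chromosomes, from 53 on the X to 180 on chromosome 1, where they made up 22.4% of the intervals compared. Chromosome 17 had the lowest share among the 20, 10.4%. The plus strand held 1030 and the minus strand 855. For 1357 of them (72.0%) the interval was chosen among several overlapping ones, and 2 shared a transcript ID with each other.

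In features the choice did not use, the long intervals were richer in T: the median T share of their sequence was 30.2%, against 27.3% in the other intervals. A read on them covered a median of 25.3 T bases, against 22.4. Few of their reads were multimapped, with a median of 0.150% against 0.109%, and 31 long intervals (1.64%) against 435 others (4.04%) had 50% or more of their reads multimapped.

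The first question was how strongly the long intervals were labelled, and how much of the T>C signal was there without Uprt. The conversion rate is the number of T>C conversions per 100 T bases covered, here pooled over all long intervals of a library. It was 0.369% ± 0.0558 (SD, n = 8) in Lmna +/+ mice with Uprt and 0.389% ± 0.0522 (SD, n = 6) in Lmna F/F mice with Uprt. Without Uprt it was 0.170% ± 0.0337 (SD, n = 3) in Lmna +/+ and 0.167% ± 0.0208 (SD, n = 4) in Lmna F/F mice. The 14 mice with Uprt ranged from 0.319% to 0.478% with a median of 0.366%, and the 7 without from 0.132% to 0.197%, so the groups did not overlap. The 3 Lmna +/+ mice without Uprt were at 0.132%, 0.180% and 0.197%, and the 4 Lmna F/F mice at 0.146%, 0.172%, 0.158% and 0.194%. The Lmna +/+ and F/F ranges overlapped both with and without Uprt. Among males alone the rate was 0.368% ± 0.0557 (SD, n = 6) with Uprt and 0.170% ± 0.0293 (SD, n = 5) without.

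The other intervals were labelled less. Their pooled rate was 0.243% ± 0.0230 (SD, n = 8) and 0.257% ± 0.0190 (SD, n = 6) with Uprt in Lmna +/+ and F/F mice. Without Uprt the other intervals were at 0.155% ± 0.0220 (SD, n = 3) and 0.172% ± 0.0157 (SD, n = 4), close to the long ones. A pooled rate weights each interval by its T bases covered, so deep intervals count most. The most read of the others held 8.97e+07 reads, and the most read long interval 1.70e+06. The long intervals stood 0.0859 to 0.187 percentage points above the others in each of the 14 mice with Uprt. In the 7 mice without, the difference ran from -0.00848 to 0.0369 points, below the values of all 14. No test was made of this pooled difference, since the intervals of a library are not replicates.

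**Figure D1:**
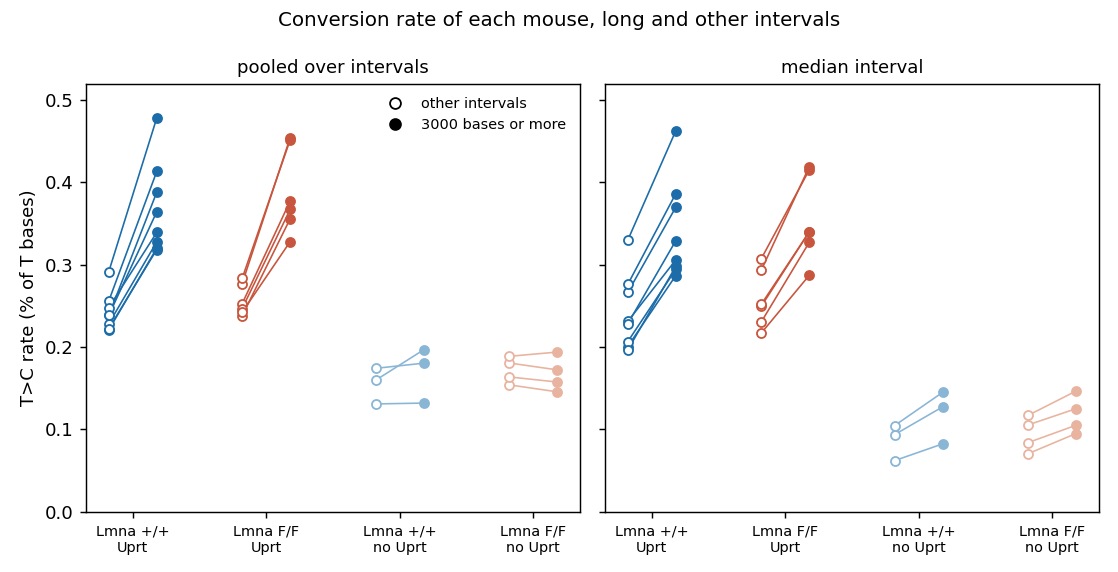
T>C conversion rate (vertical axis, percent of T bases) of each of the 21 mice by group (horizontal axis); open points are the other intervals, filled points the intervals of 3000 bases or more, and a line joins the values of 1 mouse. Pooled over intervals (left), the long intervals reach 0.319% to 0.478% with Uprt and 0.132% to 0.197% without; for the median interval (right), the long ones lie above the others in all 21 mice.

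For the typical interval, in place of the pooled rate, the long intervals were higher in every mouse. The median long interval had a rate of 0.347% ± 0.0556 (SD, n = 14) with Uprt, against 0.249% ± 0.0411 for the median of the others. Without Uprt the medians were 0.118% ± 0.0247 (SD, n = 7) and 0.0911% ± 0.01995. The ratio of the 2 medians was 1.32 to 1.52 in the mice with Uprt and 1.19 to 1.39 in those without, so these ranges overlapped. A higher rate per T base on long intervals was therefore measured in the background as well, at a lower level. In percentage points the gap between the medians was 0.0702 to 0.133 with Uprt and 0.0198 to 0.0404 without.

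With Uprt the median rate was higher in each longer class up to 4000 to 4999 bases, lower in the next and highest in the longest. The median rate, pooled over the 14 mice with Uprt, was 0.218% in the 2980 intervals of 300 bases or fewer and 0.252% in the 3535 of 301 to 1000 bases. It was 0.316% at 1001 to 2000 bases (n = 2696), 0.334% at 2001 to 2999 (n = 1566), and 0.365% at 3000 to 3999 (n = 898). Beyond that it was 0.389%, 0.371% and 0.415% in the classes of 4000 to 4999 (n = 470), 5000 to 9999 (n = 480) and 10000 or more bases (n = 37). Without Uprt the same classes went from 0.0773% to 0.134%. The rate with Uprt was thus 2.49 to 3.10 times that without in every class. Across the 1885 long intervals Spearman's rho between length and rate with Uprt was 0.0569, and across all 12650 intervals compared it was 0.213. Between length and rate without Uprt it was 0.0701 and 0.195. Between length and the log2 odds ratio for Uprt, tested below, it was 0.00398 and 0.0806. These are descriptions across intervals of the same libraries, which share depth and base composition.

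**Figure D2:**
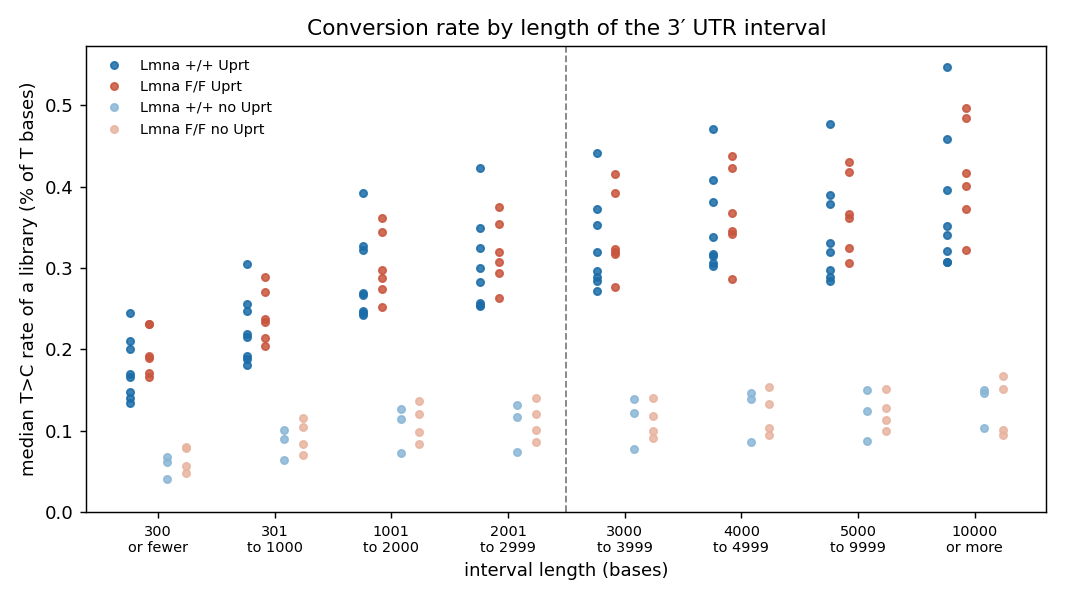
Median T>C rate over the intervals of a length class (vertical axis, percent of T bases) for each mouse, by length class in bases (horizontal axis) and group (colour); the dashed line marks 3000 bases. The classes right of the line hold 898, 470, 480 and 37 intervals, and the mice with Uprt lie above those without in each class.

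The intervals on either side of the limits were as follows. The 3000-base interval at chr5:33148576-33151575 had a pooled rate of 0.354% with Uprt and 0.242% without, and the 2999-base interval at chr10:112761335-112764333, just outside, had 0.323% and 0.0740%. At the limit on reads, the member at chr4:59753040-59761439 held 2005 reads with rates of 0.875% and 0.223%, and the interval at chr1:93937248-93944869 held 1995 with 0.357% and 0.0392%.

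Read depth and the T bases covered per read were compared within classes, since a deeper interval allows smaller differences to be called. With 2000 to 5000 reads the median rate with Uprt was 0.385% in long (n = 510) and 0.317% in other intervals (n = 3629). At 50000 reads or more it was 0.296% (n = 190) and 0.167% (n = 1244). With 25 to 30 T bases per read the medians were 0.393% (n = 748) and 0.308% (n = 2469). In each of 5 classes of reads and 5 of T bases per read the long intervals had the higher median rate, with and without Uprt.

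The second comparison tested each interval for a change of the rate with Uprt, as the mean of the changes in both Lmna genotypes. 1375 of the 1885 long intervals (72.9%) had a higher rate with Uprt, and 2 (0.106%) a lower one, at an adjusted p under 0.05 when converted and unconverted T bases were compared by edgeR's quasi-likelihood test (Benjamini-Hochberg). Of all 12664 intervals tested, 58.5% were called higher and 0.182% lower. The median log2 odds ratio of the long intervals was 1.45 (quartiles 0.88 and 1.98), beside 1.27 for all intervals tested and 1.24 for the 10765 others tested. 1799 of the long intervals (95.4%) had an odds ratio above 1, as did 92.5% of all tested. In 458 long intervals (24.3%) all 14 mice with Uprt lay above all 7 without, while 14.2% of all tested and 12.3% of the others did so.

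The share called grew with depth and length. It was 53.3% of the long intervals with 2000 to 5000 reads (39.1% of the others) and 89.5% of those with 50000 reads or more (75.4% of the others). By length it went from 44.4% at 300 bases or fewer to 71.5% at 3000 to 3999 and 81.1% at 10000 or more bases. The median log2 odds ratio was larger in the long than in the other intervals in all 5 classes of reads (1.58 against 1.43 at 2000 to 5000 reads, 1.25 against 0.88 at 50000 or more). Among classes of T bases per read it was larger in 4, and smaller under 15 T bases per read, where 36 long intervals had 1.06 and 1802 others 1.24. Long intervals that were not called (510) held a median of 5396 reads, against 12751 for those called higher.

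Tested within each genotype in the same fit, the rate was higher with Uprt in 947 long intervals in Lmna +/+ mice (50.2%, background 36.2%) and in 1141 in Lmna F/F mice (60.5%, background 45.6%). It was lower in 1 long interval in each genotype (background 0.0632% and 0.103%). The difference between these changes was called in 0 of the 1885 by edgeR (106, or 5.62%, at an unadjusted p under 0.05, against 5.89% of all tested). A fit of the 11 Lmna +/+ libraries alone called 716 higher. Part of the signal was there without Uprt: the rate pooled over the mice without Uprt was, for each long interval, a share of its rate with Uprt, and the median of these shares was 38.6%, beside 44.1% over the others.

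**Figure D3:**
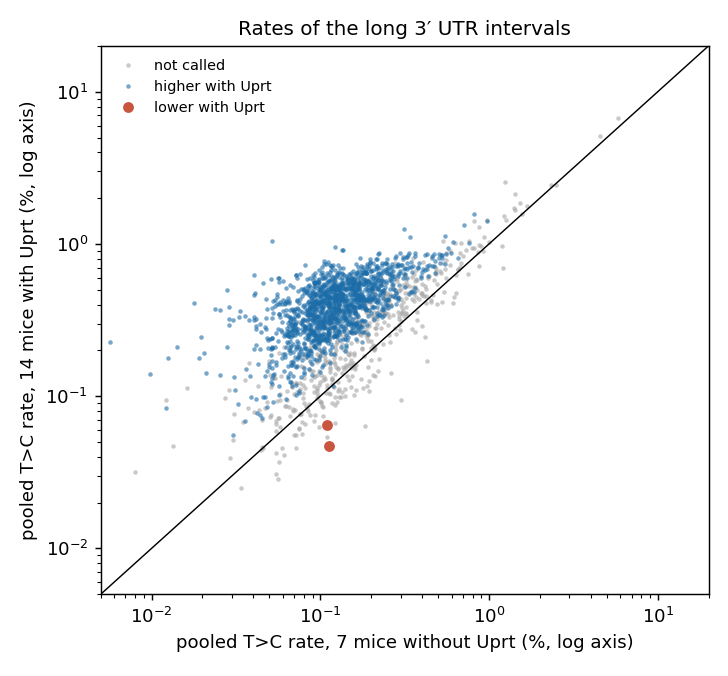
T>C rate pooled over the 14 mice with Uprt (vertical axis, percent, log scale) against that pooled over the 7 without (horizontal axis, percent, log scale) for 1884 long intervals; 1 interval with no conversion without Uprt is not drawn. The line marks equal rates, blue points were called higher, grey points were not called and the 2 large red points were called lower. Most points lie above the line, with 1778 of the 1885 long intervals higher with Uprt.

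The largest gains came from intervals with almost no conversions in the background. At chr1:143653380-143657045 there were 170 conversions on 53757 T bases with Uprt (0.316%) and 14 on 34710 without (0.0403%). The 14 mice with Uprt ran from 0.0206% through a median of 0.339% to 0.593%, 5 of the 7 mice without were at 0, and the groups overlapped. At chr3:31150852-31155542 the counts were 147 on 69481 (0.212%) and 10 on 35732 (0.0280%), and at chr4:32580297-32586104 they were 138 on 37971 (0.363%) and 7 on 20885 (0.0335%). The 3 Lmna +/+ mice without Uprt together held 0 conversions at each, on 12116, 12182 and 8903 T bases. Taking 3 conversions as the upper limit allows rates of up to 0.0248%, 0.0246% and 0.0337% by counting error alone. That limit treats T bases as independent and leaves out the spread between mice. Copies of 1 molecule cannot be told apart in the counts used. The fitted log2 odds ratios of 4.57, 4.41 and 4.50 (adjusted p by edgeR 0.000810, 4.49e-05 and 0.00583) therefore depend on the prior count and are not bounds. At the interval on chromosome 4, where 4 of the 14 mice with Uprt were also at 0, the call was lost in Lmna F/F mice alone (2.22).

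The 2 long intervals called lower with Uprt had few conversions in either set of mice. At chrX:132483628-132488736 there were 76 on 161374 T bases with Uprt (0.0471%) and 110 on 98265 without (0.112%), where the log2 odds ratio was -1.15 with a standard error (SE) of 0.43 (adjusted p by edgeR 0.0260). The mice with Uprt ranged from 0 to 0.115% and those without from 0.0446% to 0.175%, so they overlapped. The call was lost without Lmna F/F no Uprt replicate 2 (-1.001), without Lmna +/+ no Uprt replicate 3 (-0.85), by T>C reads (-0.85), in males alone (-0.83) and in Lmna +/+ mice alone (-0.34). At chr5:93319214-93322817, with 92 on 142477 (0.0646%) against 94 on 86084 (0.109%), the value was -1.49 ± 0.64 (SE; adjusted p by edgeR 0.0497). That call was lost, at values from -1.18 to -1.56, without any 1 of Lmna +/+ Uprt replicates 1, 2, 3, 5 and 8 or Lmna F/F Uprt replicates 1, 3, 4, 5 and 6, and without any 1 of replicates 1 and 2 of Lmna F/F no Uprt or replicates 2 and 3 of Lmna +/+ no Uprt. It was also lost without the sex term (-0.89), by T>C reads in place of T bases (-1.07), in Lmna F/F mice alone (-1.14), in Lmna +/+ mice alone (-1.38) and in males alone (-1.67).

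The 5 long intervals with the most reads show how far apart well-covered long 3′ UTRs lay. The one with the most reads, 1697721, at chr11:95959693-95963929, had no gain: its rate was 0.217% pooled over the mice with Uprt (0.173% to 0.264%) and 0.205% over those without (0.168% to 0.230%). The log2 odds ratio was 0.06 ± 0.10 (SE; adjusted p by edgeR 0.619), and 47.1% of its reads were multimapped, so the source of those reads is uncertain. The next, at chr16:43439108-43462965 with 781479 reads and a length of 23858 bases, rose from 0.171% (0.114% to 0.209%) to 0.513% (0.319% to 0.702%). Every mouse with Uprt lay above every mouse without (1.53 ± 0.14; adjusted p by edgeR 1.95e-08).

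The remaining 3 gained less. The interval at chr12:100172688-100176065 went from 0.188% to 0.294% (0.64 ± 0.11; adjusted p by edgeR 5.23e-05) and that at chr6:67260944-67274720 from 0.282% to 0.402% (0.48 ± 0.11; adjusted p by edgeR 0.00116). At chr7:110666957-110671898 the rate without Uprt was already 0.654% (0.601% to 0.700%), the highest background of the 5, and it was 0.812% with Uprt (0.721% to 0.886%). This gain, 0.31 ± 0.08 (adjusted p by edgeR 0.00265), was the smallest of the 1375 called, and the mice did not overlap. The call was lost in Lmna +/+ mice alone (0.25) and in males alone (0.31). In all, 20 long intervals with 50000 reads or more were not called higher, with log2 odds ratios from -0.17 to 0.87, and 3 of them had 10% or more of their reads multimapped.

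The longest interval, 122583 bases at chr10:83201787-83324369, held 9727 reads. Its rate was 0.430% with Uprt (0.209% to 0.699%) and 0.138% without (0.0257% to 0.237%), the log2 odds ratio was 1.88 ± 0.38 (adjusted p by edgeR 0.000249), and the mice overlapped slightly. The second longest, 39397 bases at chr1:97534043-97573439, had 0.663% and 0.511% and was not called (0.34 ± 0.53; adjusted p by edgeR 0.600). Rates of 2% or more in a mouse without Uprt were found in 9 long intervals (0.477%) and in 294 others (2.73%).

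The third comparison asked whether Lmna genotype changed the abundance of RNAs with long 3′ UTRs, measured as all reads of an interval, labelled or not. With Uprt, 53 of the 1885 long intervals rose and 13 fell in Lmna F/F against Lmna +/+ mice (edgeR's quasi-likelihood test, Benjamini-Hochberg adjusted p under 0.05). That is 2.81% and 0.690%, where 2.18% and 0.263% of all 31182 intervals tested were called. The other intervals of the same read limit had 3.61% higher and 0.538% lower. The median log2 fold change was -0.04 in the long intervals, -0.04 in the others and 0.01 in all tested. Intervals that rose had a median change of 0.81 and those that fell one of -0.60, and 17 (0.902%) rose by 1 or more on the log2 scale, against 1.44% of all tested and 1.90% of the others.

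The largest rises were in intervals of few reads. The limit of 2000 reads was summed over all 21 libraries, those of Lmna F/F mice included. An interval with few reads in 1 genotype can thus have met it through the other. The first 2 intervals below held 2577 and 3232 reads in all, so their rises are not independent of the choice of intervals. The interval at chr9:123925464-123932521 (ENSMUST00000111442.3) had 0.210 to 1.72 CPM, reads relative to the TMM-scaled library size (median 0.928), in the 8 Lmna +/+ mice and 3.53 to 7.05 (median 4.92) in the 6 Lmna F/F mice. These did not overlap. The change was 2.41 ± 0.37 on the log2 scale (SE; adjusted p by edgeR 0.000202). That at chr8:26302915-26306010 (ENSMUST00000033979.6) went from 0.518 to 1.38 CPM (median 0.867) to 2.51 to 7.21 CPM (median 3.54), also without overlap (2.18 ± 0.40; adjusted p by edgeR 0.00161). At chr7:4006401-4012689 the mean was 1.09 ± 0.475 (SD, n = 8) and 4.24 ± 0.458 CPM (SD, n = 6), a change of 1.96 ± 0.30. The intervals at chr13:94328610-94331917 (1.68 ± 0.32) and chr19:10833252-10836726 (1.67 ± 0.31) had means of 1.37 and 1.26 CPM in Lmna +/+ and 4.42 and 3.96 CPM in Lmna F/F mice. All 5 were higher in each of the 6 Lmna F/F mice than the mean of the Lmna +/+ mice.

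The falls were smaller. The interval at chr19:27311324-27314579 (ENSMUST00000056708.4) was at 2.39 to 5.56 CPM (median 3.85) in Lmna +/+ and 1.56 to 3.14 (median 1.93) in Lmna F/F mice, which overlapped, with a change of -1.03 ± 0.24 (adjusted p by edgeR 0.0124), not called without the sex term (-0.93). At chr3:63287754-63293451 (ENSMUST00000194134.6) the values were 5.84 to 10.4 CPM (median 8.02) and 2.24 to 5.84 (median 4.34), a change of -0.96 ± 0.20 (adjusted p by edgeR 0.00455). The highest Lmna F/F mouse came just under the lowest Lmna +/+ mouse there. The interval at chr3:99124224-99127519 changed by -0.81 ± 0.16. Both intervals on chromosome 3 lie on the chromosome that carries Lmna, as do 128 of the 1885 long intervals. A link to the Lmna locus was not tested.

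Falls at higher read counts were found at chr6:57483487-57487702 and chr11:3847579-3851296. The first went from 61.6 ± 11.3 CPM (SD, n = 8) to 37.9 ± 6.48 (SD, n = 6), a change of -0.76 ± 0.15 (adjusted p by edgeR 0.00370). The second went from 46.9 ± 5.15 to 31.1 ± 5.74 CPM, a change of -0.64 ± 0.14 (adjusted p by edgeR 0.0115). Both were also among the intervals whose conversion rate was called higher with Uprt, as were 72.9% of all long intervals. The falls at chr19:27311324-27314579 and chr3:99124224-99127519 were called so too, and that at chr3:63287754-63293451 was not. Among the largest rises, chr8:26302915-26306010 was called higher with Uprt (adjusted p by edgeR 0.00431). Those at chr9:123925464-123932521, chr7:4006401-4012689, chr13:94328610-94331917 and chr19:10833252-10836726 were not (adjusted p by edgeR 0.425, 0.951, 0.212 and 0.684). These rises held few reads, where a smaller share of intervals was called.

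The counts with Uprt depended on the scaling and on single mice. With library size alone in place of TMM, which shifted the median of all intervals from 0.01 to 0.16, 105 rose and 5 fell (95.5% of calls higher, against 80.3%), and DESeq2 called 69 and 33 (67.6% higher). Without Lmna F/F Uprt replicate 2, 32 rose, and without replicate 1 of that group 8 fell.

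**Figure D4:**
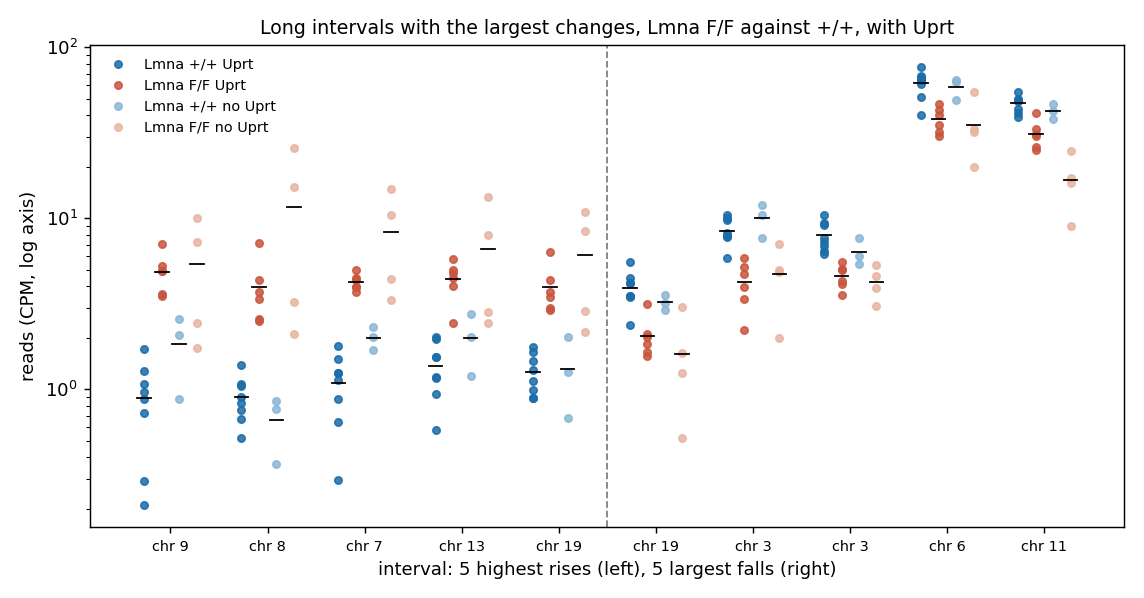
Reads (vertical axis, CPM, log scale) of each mouse in the 5 long intervals that rose most (left of the dashed line) and the 5 that fell most (right) in Lmna F/F against Lmna +/+ mice with Uprt, named by chromosome; colours are the 4 groups and bars their means. In Lmna F/F mice without Uprt, the highest of the 4 values reaches 25.9 CPM in the second interval from the left, where the other 3 are 15.1, 2.10 and 3.23.

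The same comparison in mice without Uprt, which share no sample with the former, called 84 long intervals higher (4.46%) and 76 lower (4.03%) in edgeR at an adjusted p under 0.05. Of all 31182 tested, 3.46% were higher and 1.72% lower, and of the others of the same read limit 5.73% and 3.80%. The median change was -0.05 in the long intervals, -0.04 in the others and 0.03 in all tested. 34 long intervals rose in both comparisons (64.2% of the 53 and 40.5% of the 84), and 7 fell in both (53.8% of the 13 and 9.21% of the 76). Over all tested 453 rose in both (66.7% of the 679 and 42.0% of the 1079) and 35 fell in both (42.7% of the 82 and 6.53% of the 536). The shares of rises over all tested were close to those of the long intervals. Among the others of the same read limit they were higher, with 304 rising in both (78.1% of 389 and 49.3% of 617). There 27 fell in both (46.6% of 58 and 6.60% of 409). In each of these sets 0 were called in opposite directions. The difference between the effects of Lmna genotype with and without Uprt was called by edgeR in 0 of the 1885 long intervals, with 200 (10.6%) at an unadjusted p under 0.05. That share was 7.05% of all tested and 9.50% of the others, and 0 of all tested were called. DESeq2 called 0 higher and 1 lower, and edgeR without the filter on low counts 15 and 23.

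**Figure D5:**
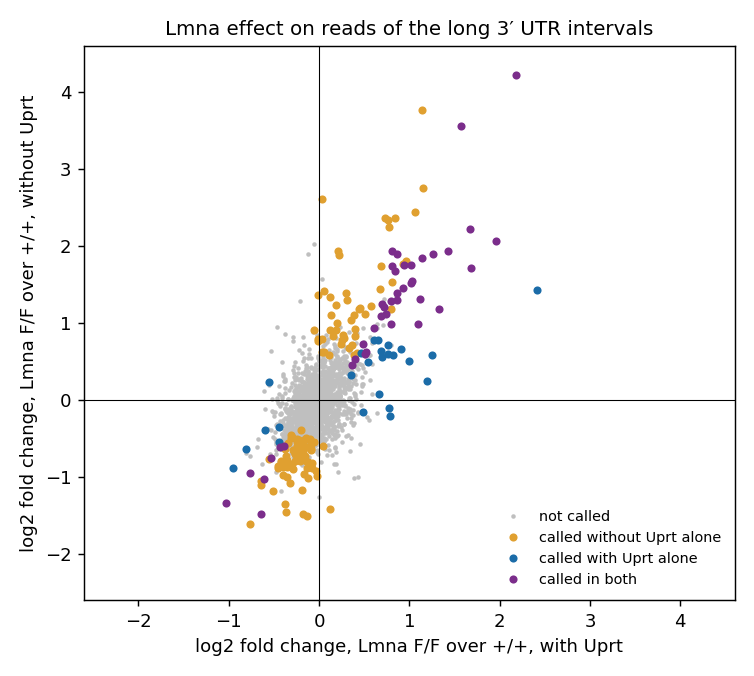
Log2 fold change of all reads in Lmna F/F over Lmna +/+ mice without Uprt (vertical axis) against that in mice with Uprt (horizontal axis) for the 1885 long intervals. Colours give the comparison in which an interval was called; the purple points were called in both, 34 higher at the upper right and 7 lower at the lower left.

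Lmna F/F no Uprt replicates 1 and 2 were the extremes of their group in most of the calls without Uprt. In 71 of the 84 intervals that rose (84.5%) they were the 2 highest of the 4 mice of their group, and in 58 of the 76 that fell (76.3%) the 2 lowest. Over all 1885 long intervals they were the 2 highest in 23.2% and the 2 lowest in 24.03%. Without both of them, a pair chosen after seeing the data, 6 rose and 2 fell. That fit keeps 2 mice of the group, and fewer mice also allow fewer calls. No other pair was left out for comparison. Without replicate 1 alone 26 rose and 15 fell, and without replicate 2 alone 48 and 40. Without replicate 3 of the same group 141 fell. Without Lmna +/+ no Uprt replicates 1, 2 or 3, the counts were 44 and 26, 39 and 39, and 48 and 38. In a fit of these 7 libraries alone edgeR called 0 long intervals, those named here included, with 317 (16.8%) at an unadjusted p under 0.05, against 13.5% of all tested in that fit. With library size alone 123 rose and 39 fell (75.9% of calls higher, against 52.5%), where the median of all intervals moved from 0.03 to 0.17.

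The largest rise without Uprt was at chr8:26302915-26306010, which had the second largest rise with it. The 3 Lmna +/+ mice had 0.764, 0.857 and 0.364 CPM and the 4 Lmna F/F mice 25.9, 15.1, 2.10 and 3.23, a change of 4.22 ± 0.65 on the log2 scale (SE; adjusted p by edgeR 0.000306). An interval on chromosome 18 had 4.66, 6.78 and 8.61 CPM against 95.7, 91.4, 6.94 and 19.3 (3.77 ± 0.68; adjusted p by edgeR 0.00127). In the Lmna +/+ mice with Uprt it ran from 3.21 to 25.9 CPM, in the Lmna F/F mice with Uprt from 7.23 to 31.4, and it was not called (1.14 ± 0.42; adjusted p by edgeR 0.169). In both intervals replicates 1 and 2 of the Lmna F/F mice were the highest, and on chromosome 18 the third mouse fell within the range of the Lmna +/+ mice. Without those 2 mice the interval on chromosome 18 was not called (1.63).

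In the next 3 rises replicates 1 and 2 of the Lmna F/F mice were again the highest, with replicate 2 above replicate 1 at the last. These intervals held 4028, 2076 and 2252 reads over all libraries, and can have met the limit on reads through the Lmna F/F mice. At chr3:54285905-54290898 the values were 1.72, 0.883 and 1.03 CPM against 31.7, 14.1, 1.83 and 3.93 (3.57 ± 0.65), which was not called without both mice (1.36). At chr15:66791304-66795050 they were 1.01, 0.101 and 0.942 against 10.4, 5.85, 1.07 and 1.81 (2.75 ± 0.63). That call was lost without replicate 1 of the Lmna F/F mice (1.68), without both (0.95) and without Lmna +/+ no Uprt replicate 2 (2.24). At chr1:17695195-17701163 they were 1.17, 1.19 and 0.942 against 6.37, 9.24, 1.75 and 4.77 (2.61 ± 0.42; adjusted p by edgeR 0.000526), where with Uprt the change was 0.03 ± 0.27. The test of that difference gave an edgeR adjusted p of 0.142.

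Among the falls, chr11:3847579-3851296 was low in each of the 4 Lmna F/F mice: 8.96, 16.1, 24.8 and 17.2 CPM against 46.5, 42.6 and 37.9, a change of -1.48 ± 0.21 (adjusted p by edgeR 0.000178). At chr5:121994429-121998657 the Lmna F/F mice had 2.04, 3.49, 4.43 and 3.28 CPM and the Lmna +/+ mice 12.4, 7.54 and 5.57 (-1.48 ± 0.26; adjusted p by edgeR 0.00120), not called without both replicates 1 and 2 (-1.22). Neither group overlapped the other in these intervals. The interval at chr16:43439108-43462965, second in reads, also fell, from 1114 ± 142 to 814 ± 140 CPM (-0.55 ± 0.13; adjusted p by edgeR 0.0140), and its change with Uprt was -0.18 ± 0.09 (adjusted p by edgeR 0.381).

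The other 3 falls depended on 1 mouse each or more. At chr9:102419981-102423438 (-1.62 ± 0.36) Lmna +/+ no Uprt replicate 1 had 12.3 CPM and the other 2 mice 6.58 and 3.55, against 2.83, 2.18, 5.99 and 2.27. Without that replicate it was not called (-1.06), nor was chr13:74179535-74183872 (-1.50 ± 0.32 with it, -1.16 without). At chr19:17191678-17196125 (-1.45 ± 0.32) the call was lost without Lmna +/+ no Uprt replicate 2 (-0.94) and without Lmna F/F no Uprt replicate 1 (-1.28). All 3 were also lost without both replicates 1 and 2 of the Lmna F/F mice, at -1.45, -1.25 and -1.04, and the first 2 without the sex term (-1.17 and -1.15).

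The last comparison was of the conversion rate between Lmna genotypes. With Uprt, 0 of the 1885 long intervals were called in either direction by edgeR, as were 0 of the 12664 tested, and 29 long intervals (1.54%) had an unadjusted p under 0.05, against 2.78% of all tested. The median log2 odds ratio was 0.06 with a median SE of 0.39, beside 0.07 over all tested. Without Uprt 0 were called and 111 (5.89%, against 6.44% of all tested) had an unadjusted p under 0.05, with a median of -0.04 and a median SE of 0.61. T>C reads against other reads in place of T bases also gave 0 calls in both. With changes of 1 on the log2 scale put into simulated data of these libraries, 33.0% of changed intervals were recovered with Uprt and 3.0% without. The changed intervals were drawn from all tested that held a minimum mean of conversions per library. Every group was simulated at the rate pooled over mice with and without Uprt. A change of that size in a single interval would thus mostly have been missed. The shares do not describe intervals with fewer conversions or the lower rates without Uprt.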

How the data were processed

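Reads of 1 library per mouse were summarised by the authors per 3′ UTR interval, in a layout that is SlamDunk's per the file headers, on mm39 per the submitters' processing notes. The libraries were QuantSeq 3′ libraries read from 1 end over 100 bases, per the labels. The authors' deposited counts, so named per the file headers, were those of reads, T>C reads, multimapped reads, T bases covered and conversions on them. Other deposited columns, such as sample names, interval positions and T content, were used as given per the file headers. Aligner settings, annotation release and any filter on sequence variants were not given in the sources used here. 0 columns belonged to other samples.

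Overlapping intervals on 1 strand, chains included, were reduced to the most read one. Abundance was tested on all reads of 31182 intervals by the quasi-likelihood method of edgeR 4.0.16 (R 4.3.3), after filterByExpr at its minimum count of 10 and TMM, in 1 fit of 21 libraries to group means and sex. All 1885 long intervals passed that filter. Rates were tested in edgeR on converted and unconverted T bases, with an effect per library and conversion by group and by sex (12664 intervals). Both fits kept mitochondrial intervals, which count among all tested but not among the long or the other intervals. A log2 odds ratio or fold change is followed by its standard error. That error was derived from the test, as the size of the change over the square root of its F statistic, and is approximate. Adjustment was by Benjamini-Hochberg over all intervals tested. CPM uses TMM-scaled library sizes. DESeq2 1.42.0 was an alternative, with other scalings, filters, terms and left-out libraries. On simulated counts with 200 intervals shifted by 1 log2 unit, the test found 76.0% for reads with Uprt, 37.5% without, and 45.0% for the rate with against without Uprt. For reads, the shifted intervals had a minimum mean CPM. Their spread was the fitted dispersion, equal in all groups and without the further spread of single intervals. These shares for reads do not describe intervals or groups with more spread between mice.

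Named intervals were the 5 with most reads, the 3 longest, the 3 called with the largest and 3 with the smallest Uprt effect (rates under 2% in every mouse without Uprt), the 5 largest called Lmna changes in each direction at 1 CPM or more, and the neighbours of each limit. The intervals and this list were chosen with earlier results of these data known. The gene and marker lists planned were not run, because IDs could not be paired with names. For the same reason 4 IDs are printed.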

Additional observations from a re-analysis of the deposited data

Results flagged for a closer look

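In 2 of 42 sets of 4 to 8 mice, over the named intervals, 1 mouse lay far from the others by Dixon's test, which chance does in about 1 set in 20. At chr19:27311324-27314579 Lmna F/F Uprt replicate 4 had 3.14 CPM, the next mouse of its group 2.10 and the lowest 1.56. At chr9:102419981-102423438 Lmna F/F no Uprt replicate 3 had 5.99 CPM, the next 2.83 and the lowest 2.18.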

How the results depend on the processing

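The choice of intervals changed little with a greedy choice (1886) or ties given to the longer interval (1894). A limit of 5000 bases left 517 and one of 10000 reads 942. The rate as the share of T>C reads was 8.19% and 8.54% in Lmna +/+ and F/F mice with Uprt and 3.89% and 3.89% without; as the median interval it was 0.118% in both groups without Uprt. Intervals higher with Uprt numbered 716 in Lmna +/+ mice alone and 1272 to 1386 with each library left out. Lower with Uprt were 0 by T>C reads, 1 without a sex term, 1 in Lmna +/+ mice alone, 1 in males alone (an alternative chosen after seeing the data), and 0 to 2 with each library left out. For Lmna genotype with Uprt, 33 fell in DESeq2, 105 rose and 5 fell with library size alone, 36 fell without a filter, and 47 fell in a fit of the 14 libraries. With each left out, 32 to 50 rose and 8 to 16 fell. Without Uprt, 39 fell with library size alone and 0 rose or fell in the 7 libraries alone. With replicates 1 and 2 of Lmna F/F no Uprt left out together, chosen after seeing the data, 6 rose and 2 fell, and with each library left out 26 to 112 rose and 15 to 141 fell. The difference between these effects gave 0 higher and 1 lower in DESeq2, 15 and 23 without a filter, and 0 to 1 lower with each library left out. Lmna calls on the rate numbered 0 in all alternatives run. Of 519 alternatives for 26 results of named intervals, 466 kept direction and call, 53 lost the call and 0 reversed. The cause of these changes was not tested. No paired analysis was possible because the labels give no replicate numbers, and those used here only name mice in the order of deposit. With Uprt, 53.3% of the long intervals under 5000 reads and 89.5% of those with 50000 or more were called.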
